A study of Mus musculus with 6 samples.

Results

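The genes described here are 50 mouse genes that act in G2 phase and mitosis, out of 16058 Entrez gene identifiers listed in the study's 6 expression tables. They were taken by name from a list of mitotic genes, and each was matched to its Entrez identifier. All 50 were listed in all 6 libraries, and all 50 passed the filter on low values, which asked for at least 1 FPKM (fragments per kilobase of transcript, scaled to the number of mapped fragments) in at least 2 of 6 libraries and left 11616 genes. Their protein products carry a cell from the end of DNA replication to division. Cdk1 with its cyclins starts mitosis, kinetochores and the spindle attach and align the chromosomes, a checkpoint holds the cell until they are attached, and the anaphase-promoting complex then marks securin and the cyclins for destruction. Transcripts of these genes build up in G2 and mitosis and are low in resting cells. Mature tissue macrophages are mostly resting, while their progenitors and the erythroid precursors that mouse spleen can hold divide.

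The study compared macrophage populations of the spleen in C57BL/6 mice with and without T cell acute lymphoblastic leukemia (T-ALL). Leukemic mice were 6 to 8 weeks old when they received 1000000 GFP+ leukemia cells each, without irradiation, and their populations were sorted at day 15. Mice of this model lived 35 to 40 days. Normal mice, of the same strain and stated age range, were sorted at day 0. Day of sorting, and with it time since the stated age, goes with state in every gate. It therefore cannot be told apart from leukemia in these libraries. In each state 3 gates, that is windows of surface staining, were sorted, named Ly6cloF4/80hi, Ly6cloF4/80lo and Ly6chiF4/80lo after the monocyte antigen Ly6C and the macrophage antigen F4/80. Each combination of state and gate is 1 library. The labels do not say whether libraries came from separate or pooled mice, so each p-value measures the spread between these sorted fractions only.

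Libraries were estimated to hold 6780000 to 8740000 fragments, as read from the steps between low FPKM values. A transcript of 2 kb at 10 FPKM then carried a counting error of 7.56% to 8.59%, and 1 at 1 FPKM an error of 23.9% to 27.2%. Taken at the longest annotated coding transcript of each gene, the 300 member values rested on a median of about 366 fragments, and 32 of them on fewer than 100. The lowest was Cdc25c in normal Ly6cloF4/80hi, with about 12. Where shorter transcripts underlay the FPKM, the fragments were fewer than this reckoning gives. The sort antigens followed the gates: Ly6c2 stood at 1405 and 482 FPKM in T-ALL and normal Ly6chiF4/80lo, and at most at 21.4 FPKM in the other 4 libraries. Adgre1, which encodes F4/80, stood at 234 and 529 FPKM in T-ALL and normal Ly6cloF4/80hi and at most at 86.7 FPKM elsewhere. The macrophage receptor gene Csf1r was present in every library, at 574, 256 and 333 FPKM in T-ALL and 1488, 218 and 673 FPKM in normal mice. Here and below, 3 values of a state are listed for the gates Ly6cloF4/80hi, Ly6cloF4/80lo and Ly6chiF4/80lo. B cell marker transcripts were also present in every gate, with values given below.

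Mitotic transcripts were higher in T-ALL than in normal spleen fractions in nearly every member and in every gate. Summed over the 50 genes, the level was 2245, 1805 and 1782 FPKM in the T-ALL libraries, against 686, 692 and 599 FPKM in the normal ones. The median member stood at 34.0, 28.1 and 28.0 FPKM in T-ALL and at 7.38, 9.88 and 8.27 FPKM in normal mice. The 3 T-ALL libraries lay above the 3 normal libraries in 48 of 50 members, where 13.8% of all tested genes were ordered so. In a limma fit of log2(FPKM + 1) on state and gate over the 6 libraries, 48 of 50 members rose in T-ALL, 0 fell and 2 did not pass, the securin gene Pttg1 and the kinetochore gene Spc24 (48 also had an unadjusted p under 0.05). Over all tested genes 8.20% rose and 3.94% fell. The 48 had Benjamini-Hochberg adjusted p-values from 0.00832 to 0.035, adjusted over all 11616 genes. The members' median log2 difference was 1.79, against -0.03 over all genes, and 98.8% of all genes lay below that median. At least a 2-fold rise (log2 difference of 1 or more) together with a pass was found in 46 members and in 4.24% of all genes. A difference of log2(FPKM + 1) understates the change of genes with low FPKM. In bulk RNA, more cells in G2 and mitosis and more of these transcripts in each cell cannot be told apart.

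**Figure D1:**
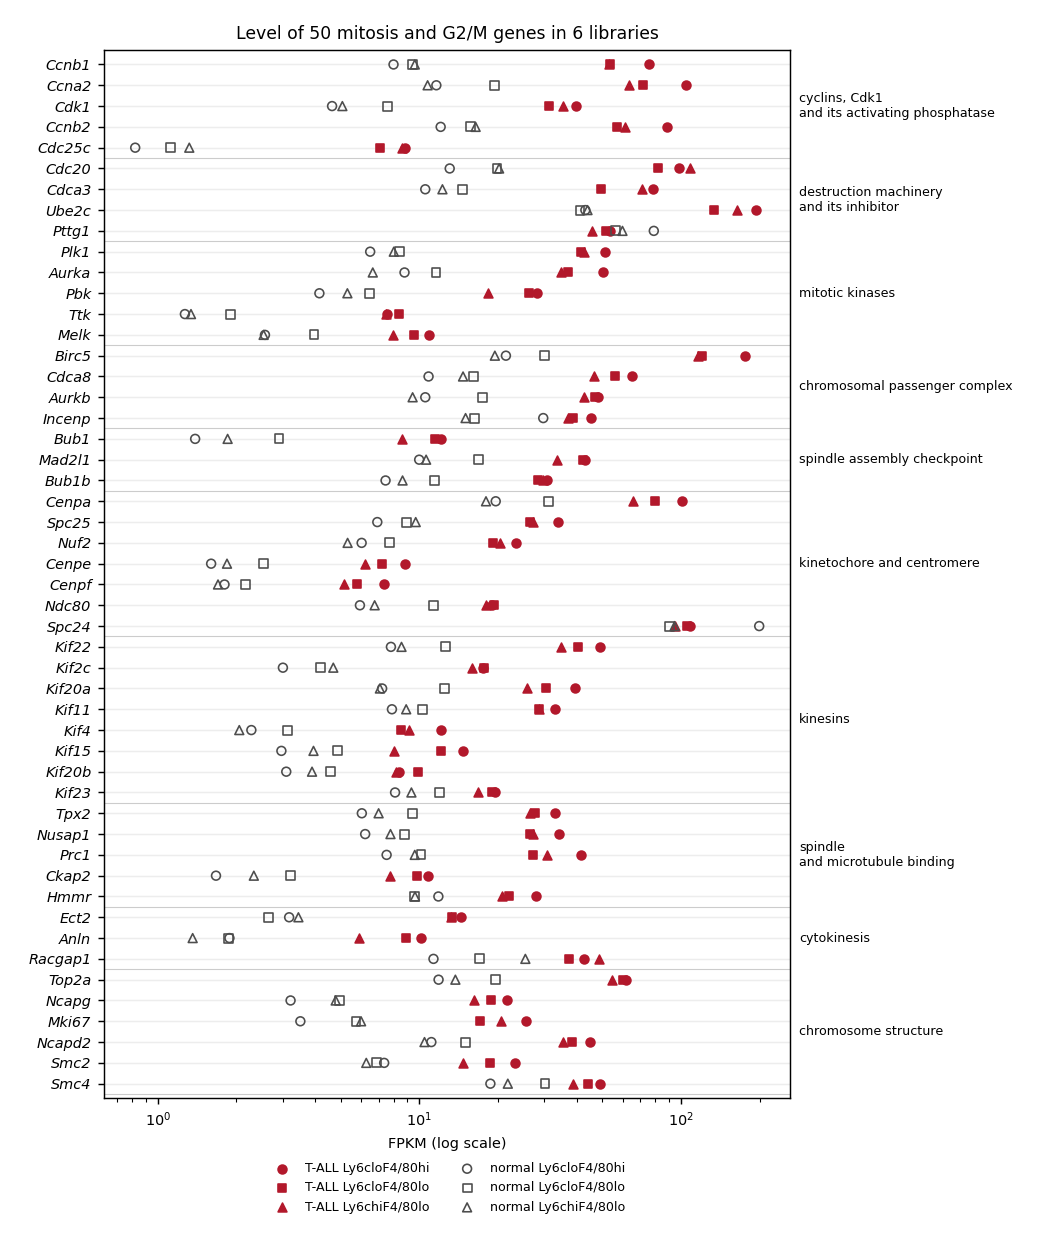
FPKM of the 50 genes on a log axis, grouped by role, with 1 point per library (filled red for T-ALL, open grey for normal, the shape for the gate). The T-ALL points lie to the right of all normal points in 48 rows, and Pttg1 and Spc24 are the exceptions.

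Cyclins, Cdk1 and the phosphatase that activates it had the largest median log2 difference of the 10 groups of roles, 2.45, and 5 of 5 rose. Ccnb1, the main mitotic cyclin, had 75.3, 53.8 and 53.2 FPKM in T-ALL libraries, against 7.97, 9.45 and 9.61 FPKM in normal ones. The lowest T-ALL value was 5.54 times the highest normal value, and the log2 difference of 2.61 (SE 0.19, limma adjusted p = 0.00832) was the largest of the 50. Ccna2, the cyclin of S phase and G2, had 105, 71.9 and 63.2 FPKM in T-ALL and 11.6, 19.4 and 10.8 FPKM in normal mice. Its groups were also apart, by 3.26 times between the nearest libraries (log2 difference 2.45, SE 0.24, limma adjusted p = 0.00832). Cdk1, the kinase both cyclins activate, had 39.7, 31.2 and 35.6 FPKM in T-ALL and 4.64, 7.58 and 5.08 FPKM in normal mice (log2 difference 2.45, SE 0.21). Ccnb2, the second B-type cyclin, had 88.9, 57.1 and 61.3 FPKM in T-ALL and 12.1, 15.7 and 16.4 FPKM in normal mice (log2 difference 2.14). In each of these the Ly6cloF4/80hi library was the highest T-ALL library, and no normal library reached the lowest T-ALL library. Cdc25c, which removes the inhibitory phosphates from Cdk1, was the scarcest of them, at 8.85, 7.06 and 8.61 FPKM in T-ALL and 0.82, 1.12 and 1.32 FPKM in normal mice. Its ratio in Ly6cloF4/80hi, 10.8, was the highest of any member in any gate, on about 12 fragments in the normal library.

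Promoter sequences of these genes can be set beside their levels. Many mitotic promoters are known to carry a cell cycle homology region, read by the DREAM complex and by B-Myb with FoxM1, and CCAAT boxes, read by NF-Y. The letters TTTGAA (the usual form of the cell cycle homology region) and CCAAT were searched on both strands in RefSeq promoters of build GRCm38.p6, each 250 bases before to 50 bases after a transcript start given in that table. Of 43 member windows 21 were set at the 5′ end of the RefSeq gene model and 22 inside it, 8 of these by more than 50 bases. TTTGAA stood in 34 of 43 promoters of 41 members (79.1%) and in 17.9% of 32851 promoters in the table. CCAAT stood in 32 of 43 (74.4%) and in 37.4% of all. Both stood in 29 (67.4%), against 6.95% of all promoters. Matches of the motifs were allowed to overlap. Ect2 and Prc1 each have overlapping windows, so the same sites there were counted once per window. Of 45 TTTGAA matches in member promoters, 34 began between positions -100 and 50, counted from the first base of that transcript as 1 and the base before it as -1, and of 73 CCAAT matches 57 began between -150 and -1. The share of matches at these positions over all promoters was not computed. The median log2 difference was 1.79 in the 32 members with TTTGAA and 1.62 in the 9 without. A match describes the sequence and is no evidence of binding. Shown are the promoters of the 5 members with the largest log2 differences among those with an entry, and that of Pttg1, which did not rise. Sequences run 5′ to 3′ on the gene's strand, and capitals mark TTTGAA or CCAAT or the reverse complement of either.
Ccnb1: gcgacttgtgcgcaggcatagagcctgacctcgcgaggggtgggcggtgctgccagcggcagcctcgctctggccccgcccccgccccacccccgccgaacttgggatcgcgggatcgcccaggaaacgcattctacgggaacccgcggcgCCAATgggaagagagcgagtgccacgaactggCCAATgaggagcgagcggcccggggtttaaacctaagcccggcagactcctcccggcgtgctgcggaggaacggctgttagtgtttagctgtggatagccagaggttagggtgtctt
Birc5: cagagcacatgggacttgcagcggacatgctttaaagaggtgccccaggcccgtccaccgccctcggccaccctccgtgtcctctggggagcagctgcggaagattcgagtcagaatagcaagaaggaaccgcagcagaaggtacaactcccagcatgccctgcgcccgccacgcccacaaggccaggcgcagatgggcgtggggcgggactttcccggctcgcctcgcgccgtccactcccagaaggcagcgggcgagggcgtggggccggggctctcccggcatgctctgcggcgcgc
Cdk1: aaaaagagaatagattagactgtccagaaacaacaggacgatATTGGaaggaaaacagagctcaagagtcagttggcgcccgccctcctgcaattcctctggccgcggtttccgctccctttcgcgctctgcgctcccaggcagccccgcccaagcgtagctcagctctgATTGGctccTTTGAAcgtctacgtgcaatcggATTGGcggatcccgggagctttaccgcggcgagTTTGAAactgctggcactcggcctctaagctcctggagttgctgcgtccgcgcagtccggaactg
Plk1: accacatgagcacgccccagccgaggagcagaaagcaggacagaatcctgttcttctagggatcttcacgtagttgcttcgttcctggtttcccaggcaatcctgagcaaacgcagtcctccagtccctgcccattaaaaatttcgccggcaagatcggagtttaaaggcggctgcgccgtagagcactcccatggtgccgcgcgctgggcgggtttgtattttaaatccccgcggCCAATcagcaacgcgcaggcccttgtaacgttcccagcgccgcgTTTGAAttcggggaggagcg
Cdc20: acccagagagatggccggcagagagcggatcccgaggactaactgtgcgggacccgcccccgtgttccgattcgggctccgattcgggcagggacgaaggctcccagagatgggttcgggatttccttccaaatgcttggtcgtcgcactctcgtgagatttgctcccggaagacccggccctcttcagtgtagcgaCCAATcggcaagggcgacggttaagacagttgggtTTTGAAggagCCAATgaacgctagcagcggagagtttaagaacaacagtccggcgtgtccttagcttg
Pttg1: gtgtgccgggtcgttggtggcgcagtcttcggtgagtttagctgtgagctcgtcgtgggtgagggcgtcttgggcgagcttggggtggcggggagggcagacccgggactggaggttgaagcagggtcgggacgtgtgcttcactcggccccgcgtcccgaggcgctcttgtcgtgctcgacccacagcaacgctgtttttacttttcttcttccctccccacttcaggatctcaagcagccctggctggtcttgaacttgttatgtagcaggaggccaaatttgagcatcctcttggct
Ccnb1 (chr13:100786437-100786736, minus strand) held CCAAT at positions -99 and -67 and no TTTGAA. Cdk1 (chr10:69352863-69353162, minus strand) held TTTGAA at -71 and -15 and CCAAT on the opposite strand at -208, -80 and -48. Plk1 (chr7:122159185-122159484, plus strand) held CCAAT at -14 and TTTGAA at 31. Cdc20 (chr4:118437294-118437593, minus strand) held CCAAT at -53 and -8 and TTTGAA at -18. Neither motif stood in the window of Birc5 (chr11:117848987-117849286, plus strand). Neither stood in that of Pttg1 (chr11:43425932-43426231, minus strand), which is set at a transcript start 1482 bases inside the RefSeq gene model, so the outer 5′ end of that model was not searched.

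In T-ALL 3 of the 4 genes of the destruction machinery rose. Cdc20, the activator of the anaphase-promoting complex in mitosis, had 98.1, 82.0 and 108 FPKM in T-ALL and 13.1, 19.8 and 20.2 FPKM in normal mice (log2 difference 2.39, SE 0.18, limma adjusted p = 0.00832). Here the highest library was T-ALL Ly6chiF4/80lo, unlike in the cyclins. Ube2c, the ubiquitin-conjugating enzyme that works with that complex, was the most abundant member in each T-ALL library, at 193, 134 and 165 FPKM, against 43.2, 41.2 and 44.0 FPKM in normal mice. The normal libraries differed little among themselves and the states were apart by 3.04 times at the nearest (log2 difference 1.90, SE 0.15). Cdca3, a trigger of mitotic entry, had 78.4, 49.5 and 70.8 FPKM in T-ALL and 10.5, 14.6 and 12.3 FPKM in normal mice (log2 difference 2.31). Pttg1, securin, which the complex destroys so that sisters can part, is described with Spc24 below.

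All 5 mitotic kinases rose, with log2 differences from 1.39 to 2.42. Plk1, which acts in mitotic entry, centrosome maturation and cytokinesis, had 51.3, 41.4 and 42.6 FPKM in T-ALL and 6.49, 8.40 and 7.99 FPKM in normal mice (log2 difference 2.42, SE 0.17, limma adjusted p = 0.00832). Aurka, the kinase of centrosomes and spindle poles, had 50.4, 36.9 and 34.8 FPKM in T-ALL and 8.78, 11.6 and 6.64 FPKM in normal mice (log2 difference 2.07). Both were separated between states by at least 3.0 times at the nearest libraries. Ttk, the kinase that starts checkpoint signalling, was low but apart as well, at 7.55, 8.34 and 7.49 FPKM in T-ALL and 1.27, 1.90 and 1.34 FPKM in normal mice (log2 difference 1.82). Pbk, a kinase active in mitosis, had 28.1, 26.2 and 18.4 FPKM in T-ALL and 4.15, 6.47 and 5.31 FPKM in normal mice. Melk, a kinase of dividing progenitor cells, had the smallest difference of the 5, with 10.9, 9.52 and 7.92 FPKM in T-ALL and 2.57, 3.96 and 2.54 FPKM in normal mice (log2 difference 1.39, SE 0.19, limma adjusted p = 0.0138).

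The chromosomal passenger complex corrects attachments at centromeres and moves to the midzone in anaphase, and all 4 of its genes rose, by unequal amounts. Birc5, which encodes survivin, had 176, 120 and 116 FPKM in T-ALL and 21.4, 30.1 and 19.5 FPKM in normal mice (log2 difference 2.49, SE 0.21, limma adjusted p = 0.00832). Cdca8, borealin, had 65.0, 56.1 and 46.6 FPKM in T-ALL and 10.9, 16.2 and 14.7 FPKM in normal mice (log2 difference 1.94). Aurkb, the kinase of the complex, had 48.2, 46.9 and 42.7 FPKM in T-ALL and 10.5, 17.5 and 9.43 FPKM in normal mice (log2 difference 1.85). These 3 were far apart between states in each gate. Incenp, the scaffold, had 45.3, 38.7 and 37.0 FPKM in T-ALL and 29.8, 16.3 and 15.0 FPKM in normal mice (log2 difference 1.01, SE 0.17, limma adjusted p = 0.0228). Its normal Ly6cloF4/80hi library was the highest normal library and came within 1.24 times of the lowest T-ALL library.

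The spindle assembly checkpoint delays anaphase while kinetochores lack microtubules, and its 3 members rose. Bub1, the kinase that recruits the others, had 12.1, 11.5 and 8.57 FPKM in T-ALL and 1.39, 2.91 and 1.85 FPKM in normal mice (log2 difference 1.96, SE 0.21, limma adjusted p = 0.00898). Bub1b, which encodes the inhibitor BubR1, had 30.7, 28.5 and 29.7 FPKM in T-ALL and 7.43, 11.4 and 8.63 FPKM in normal mice (log2 difference 1.61). Mad2l1, which encodes the Cdc20-binding inhibitor Mad2, had 42.9, 42.4 and 33.5 FPKM in T-ALL and 10.0, 16.8 and 10.6 FPKM in normal mice (log2 difference 1.62). In all 3 the highest normal library was Ly6cloF4/80lo. The states stayed apart by at least 1.99 times at the nearest libraries.

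At kinetochores and centromeres 6 of 7 rose, with smaller differences than the cyclins and a median log2 difference of 1.49. Cenpa, the histone H3 variant that marks centromeres, had 101, 79.7 and 65.8 FPKM in T-ALL and 19.6, 31.3 and 18.0 FPKM in normal mice (log2 difference 1.81, SE 0.20, limma adjusted p = 0.00976). The large proteins Cenpe, a kinetochore motor, and Cenpf, a microtubule-binding protein of the outer kinetochore, were scarce in per-length terms. Cenpe had 8.79, 7.17 and 6.19 FPKM in T-ALL and 1.60, 2.53 and 1.84 FPKM in normal mice. Cenpf had 7.34, 5.77 and 5.14 FPKM in T-ALL and 1.80, 2.16 and 1.70 FPKM in normal mice. Both lists of values are ordered by state without overlap (log2 differences 1.49 and 1.29).

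The 4 subunits of the Ndc80 complex, which binds microtubule ends, had unequal differences. Spc25 had 34.0, 26.4 and 27.2 FPKM in T-ALL and 6.91, 8.96 and 9.69 FPKM in normal mice (log2 difference 1.67, SE 0.19, limma adjusted p = 0.0096). Nuf2 had 23.5, 19.2 and 20.4 FPKM in T-ALL and 6.02, 7.67 and 5.32 FPKM in normal mice (log2 difference 1.59). Ndc80 itself rose less, with 18.9, 19.3 and 18.0 FPKM in T-ALL and 5.93, 11.3 and 6.75 FPKM in normal mice (log2 difference 1.18, limma adjusted p = 0.0206). Spc24 did not pass: it had 108, 106 and 94.8 FPKM in T-ALL and 199, 90.2 and 94.7 FPKM in normal mice (log2 difference -0.22, SE 0.24, limma adjusted p = 0.544). The T-ALL libraries were close together and the normal Ly6cloF4/80hi library stood above all others. In normal mice Spc24 was the most abundant of the 50 genes in every gate, above each of its partners.

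Pttg1 was the other exception, with 53.5, 51.8 and 45.6 FPKM in T-ALL and 78.8, 56.4 and 59.8 FPKM in normal mice (log2 difference -0.35, SE 0.15, limma adjusted p = 0.148). All 3 T-ALL libraries lay below all 3 normal ones, an order that 10.9% of all tested genes had, and the difference did not pass. Spc24 and Pttg1 were the 2 most abundant members in each normal library. Without them the sum of the other 48 was 2083, 1647 and 1642 FPKM in T-ALL, against 408, 545 and 444 FPKM in normal mice. Neither gene shares exonic bases with another gene in GENCODE M21. Whether reads from pseudogenes or close copies were assigned to them was not tested.

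**Figure D2:**
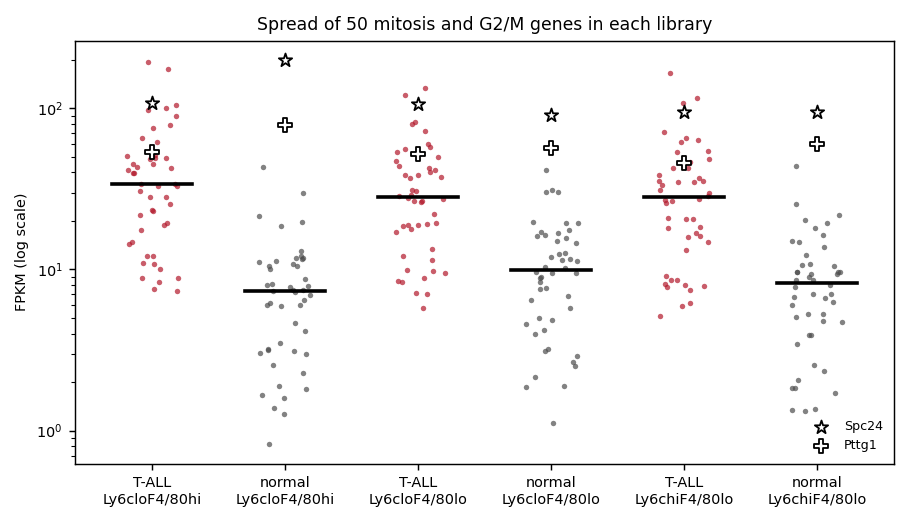
FPKM of the 50 genes on a log axis in each library, with each gate's T-ALL library beside its normal one. Dots are genes, bars are medians over the 50 genes (28.0 to 34.0 FPKM in T-ALL and 7.38 to 9.88 FPKM in normal mice), and Spc24 (star) and Pttg1 (plus) stand near the top of the normal libraries.

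All 8 kinesins rose, with log2 differences from 0.86 to 2.01. Kif22, a motor that binds chromosome arms, had 49.0, 40.4 and 34.9 FPKM in T-ALL and 7.79, 12.6 and 8.55 FPKM in normal mice (log2 difference 2.01, SE 0.20, limma adjusted p = 0.00832). Kif11, which pushes spindle poles apart, had 33.0, 28.8 and 28.7 FPKM in T-ALL and 7.86, 10.3 and 8.91 FPKM in normal mice (log2 difference 1.64). Kif20a, which carries passenger proteins to the midzone, had 39.5, 30.6 and 25.8 FPKM in T-ALL and 7.21, 12.5 and 7.07 FPKM in normal mice (log2 difference 1.75). In these motors the states were separated by at least 2.06 times. Kif2c, which takes microtubules apart at centromeres, had 17.6, 17.7 and 15.9 FPKM in T-ALL and 3.01, 4.20 and 4.69 FPKM in normal mice (log2 difference 1.87). Kif4, a chromosome-bound motor of the midzone, had 12.1, 8.53 and 9.12 FPKM in T-ALL and 2.28, 3.13 and 2.05 FPKM in normal mice (log2 difference 1.64). Kif15, a spindle motor that can act beside Kif11, had 14.7, 12.1 and 8.00 FPKM in T-ALL and 2.97, 4.86 and 3.94 FPKM in normal mice (log2 difference 1.34). The smallest differences of the 8 were those of Kif20b and Kif23, and differences between kinesins were not tested. Kif20b had 8.34, 9.89 and 8.17 FPKM in T-ALL and 3.10, 4.56 and 3.89 FPKM in normal mice (log2 difference 1.02, SE 0.16). Kif23, the motor subunit of centralspindlin, had 19.5, 19.0 and 16.7 FPKM in T-ALL and 8.08, 11.9 and 9.33 FPKM in normal mice (log2 difference 0.86, SE 0.16, limma adjusted p = 0.0269).

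The 5 spindle and microtubule-binding genes rose as well. Tpx2, the spindle protein that activates Aurora A, had 33.0, 27.7 and 26.4 FPKM in T-ALL and 6.03, 9.45 and 6.99 FPKM in normal mice (log2 difference 1.84, SE 0.19, limma adjusted p = 0.00832). Nusap1, a microtubule bundler near chromosomes, had 34.1, 26.5 and 27.1 FPKM in T-ALL and 6.21, 8.79 and 7.76 FPKM in normal mice (log2 difference 1.82). Prc1, which crosslinks the midzone, had 41.5, 27.2 and 30.9 FPKM in T-ALL and 7.50, 10.2 and 9.61 FPKM in normal mice (log2 difference 1.75). Their levels lay within a narrow band of each other in each library. Ckap2, a spindle pole protein, had 10.8, 9.80 and 7.74 FPKM in T-ALL and 1.67, 3.22 and 2.33 FPKM in normal mice (log2 difference 1.63). Hmmr, a microtubule-associated protein that is also a hyaluronan receptor, had 27.9, 22.1 and 20.8 FPKM in T-ALL and 11.8, 9.61 and 9.63 FPKM in normal mice (log2 difference 1.11, SE 0.13, limma adjusted p = 0.0106). Its SE was the lowest of the 50 genes, and its difference was about the same in each gate (1.17, 1.12 and 1.03).

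The 3 cytokinesis genes rose with a median log2 difference of 1.76. Ect2, which activates RhoA at the division plane, had 14.5, 13.4 and 13.2 FPKM in T-ALL and 3.18, 2.66 and 3.45 FPKM in normal mice (log2 difference 1.84, SE 0.15, limma adjusted p = 0.00832). Anln, the ring scaffold anillin, had 10.1, 8.88 and 5.89 FPKM in T-ALL and 1.88, 1.86 and 1.36 FPKM in normal mice (log2 difference 1.76). Racgap1, the partner of Kif23 in centralspindlin, had 42.7, 37.5 and 48.8 FPKM in T-ALL and 11.3, 17.0 and 25.4 FPKM in normal mice (log2 difference 1.28, SE 0.20, limma adjusted p = 0.0195). Racgap1 was highest in Ly6chiF4/80lo in both states, where Anln was lowest in both.

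Chromosome structure genes rose in 6 of 6. Top2a, the topoisomerase that untangles sister chromatids, had 61.9, 59.9 and 54.5 FPKM in T-ALL and 11.9, 19.5 and 13.7 FPKM in normal mice (log2 difference 1.93, SE 0.17, limma adjusted p = 0.00832). Mki67, the coat protein of mitotic chromosomes used as a marker of proliferation, had 25.5, 17.1 and 20.5 FPKM in T-ALL and 3.51, 5.73 and 5.99 FPKM in normal mice (log2 difference 1.87, SE 0.24). Both were apart by at least 2.80 times at the nearest libraries. Condensin genes split by subunit. The regulatory subunits of condensin I rose by more than the core: Ncapg had 21.7, 18.8 and 16.2 FPKM in T-ALL and 3.22, 4.96 and 4.79 FPKM in normal mice (log2 difference 1.91), and Ncapd2 had a log2 difference of 1.63. The core subunits, shared by both condensins, had smaller differences: Smc2 had 23.2, 18.6 and 14.7 FPKM in T-ALL and 7.34, 6.88 and 6.27 FPKM in normal mice (log2 difference 1.32). Smc4 had 49.2, 44.1 and 38.7 FPKM in T-ALL and 18.7, 30.3 and 21.8 FPKM in normal mice (log2 difference 0.89, SE 0.19, limma adjusted p = 0.035), the highest adjusted p among the 48. The differences between subunits were not tested.

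**Figure D3:**
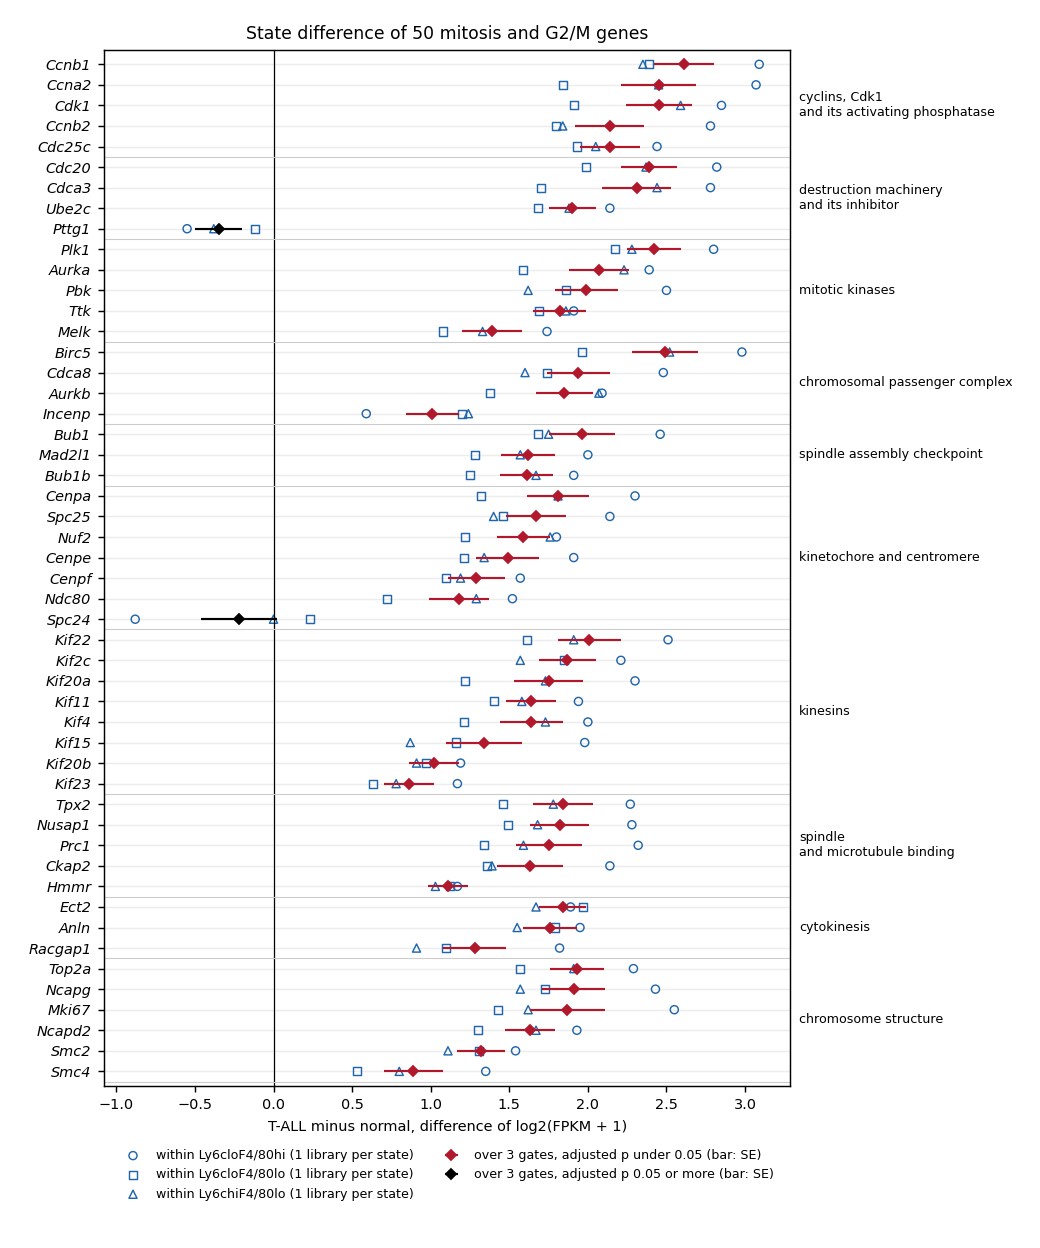
T-ALL minus normal difference of log2(FPKM + 1) for the 50 genes, grouped by role. Diamonds with SE bars are the limma estimates over 3 gates (red where the adjusted p is under 0.05, black for Pttg1 and Spc24), and open blue symbols are the differences within each gate, which lie right of 0 in every gate for 48 genes.

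Of the 48 that rose, 8 lost the call under at least 1 of 13 other settings: Incenp, Smc4, Kif23, Kif15, Ndc80, Kif20b, Racgap1 and Cenpf. Without either Ly6cloF4/80hi library Cenpf, Kif15, Kif20b, Kif23, Ndc80 and Smc4 did not pass. Without either Ly6chiF4/80lo library Incenp, Kif23 and Smc4 did not pass. Incenp also failed without either Ly6cloF4/80lo library, and Kif15 without normal Ly6cloF4/80lo. In a fit on state alone, with no block for gate, 41 members rose and all of the 8 but Cenpf did not pass. The highest adjusted p over the settings was 0.156 for Incenp and 0.0521 for Cenpf, and the log2 differences of the 8 stayed between 0.66 and 1.63. The exons of 10 members share bases with a protein-coding gene on the opposite strand in GENCODE M21, most of all Kif20a with Cdc23 (29.3% of its exonic bases) and Ube2c with Tnnc2 (22.8%). Whether counting used strand is not given in the sources used here, so reads of such pairs cannot be told apart. Tnnc2 was at most at 0.75 FPKM in any library. Cdc23 had 23.1, 23.7 and 17.0 FPKM in T-ALL and 12.7, 16.6 and 14.1 FPKM in normal mice. That was above Kif20a in each normal library and below it in each T-ALL library.

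Within each gate nearly all members had more transcript in T-ALL, which is a description, since each gate holds 1 library per state. At least 2-fold higher on the log2(FPKM + 1) scale were 47, 44 and 43 of 50 members in Ly6cloF4/80hi, Ly6cloF4/80lo and Ly6chiF4/80lo, where 9.58%, 5.43% and 6.19% of all tested genes were. No member was 2-fold lower (5.51%, 1.55% and 3.86% of all genes). The median ratio of T-ALL over normal FPKM was 5.34, 2.94 and 3.45, and the median log2 difference was 2.14, 1.41 and 1.64 against 0.02, -0.00 and -0.07 over all genes. Ly6cloF4/80hi had the largest state difference in 46 of 50 members, against 40.4% of all genes. Whether the state difference differs between gates was not tested, since 1 library per gate and state leaves no spread for it. The extremes were Cdc25c (10.8 and 6.30 times, in Ly6cloF4/80hi and Ly6cloF4/80lo), Cdk1 (7.0 times in Ly6chiF4/80lo), Spc24 (0.541 times in Ly6cloF4/80hi) and Pttg1 (0.918 and 0.762 times in Ly6cloF4/80lo and Ly6chiF4/80lo).

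The gate with the highest level was not the same in the states, which is given as a description without a test. In T-ALL the Ly6cloF4/80hi library was the highest of 3 in 44 of 50 members, Ly6cloF4/80lo in 4 and Ly6chiF4/80lo in 2 (31.6%, 45.9% and 22.5% of all genes). In normal mice the highest was Ly6cloF4/80hi in 6, Ly6cloF4/80lo in 34 and Ly6chiF4/80lo in 10 (31.0%, 44.0% and 25.0% of all genes). After median-ratio rescaling the highest T-ALL library was Ly6cloF4/80hi in 40 members, Ly6cloF4/80lo in 1 and Ly6chiF4/80lo in 9. In normal mice these counts were 6, 30 and 14, and shares of all genes were not computed after rescaling. Ly6cloF4/80hi exceeded Ly6cloF4/80lo in 46 members in T-ALL, where 39.3% of all genes did so (median log2 difference 0.25, against -0.07 over all genes). In normal mice it did so in 8 members and in 38.6% of all genes (median log2 difference -0.44, against -0.13 over all genes). In T-ALL 0 members differed 2-fold between any 2 gates, and shares of all genes were not computed for such counts. In normal mice 2 did between Ly6cloF4/80hi and Ly6chiF4/80lo, Spc24 (higher) and Racgap1 (lower), and 1 did between Ly6cloF4/80hi and Ly6cloF4/80lo, Spc24 (higher). Estimated depth was highest in T-ALL Ly6cloF4/80hi, at 8740000 fragments, and FPKM are already divided by depth.

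Between gates over both states, limma called 0 of 50 members in each of 3 comparisons. Of all genes, Ly6cloF4/80hi minus Ly6chiF4/80lo called 12.8% (7.10% higher and 5.68% lower). Ly6cloF4/80lo minus Ly6chiF4/80lo called 4.73% of them (2.68% higher and 2.05% lower). Ly6cloF4/80hi minus Ly6cloF4/80lo called 3.56% (2.66% higher and 0.904% lower). At an unadjusted p under 0.05 stood 2, 0 and 1 members, and limma without trend and robust prior also called 0. The members' medians were 0.08, 0.19 and -0.09, next to 0.12, 0.19 and -0.10 over all genes, and SE ranged from 0.16 to 0.29. These values average over the states, in which members could run in opposite directions. For Ly6cloF4/80hi minus Ly6chiF4/80lo the members' median was 0.33 in T-ALL and -0.16 in normal mice. For Ly6cloF4/80hi minus Ly6cloF4/80lo it was 0.25 and -0.44, and for Ly6cloF4/80lo minus Ly6chiF4/80lo 0.12 and 0.24. The member nearest to a call was Incenp, with a log2 difference of 0.61 in Ly6cloF4/80hi minus Ly6chiF4/80lo (SE 0.21, limma adjusted p = 0.116). Racgap1 ran the other way there, at -0.64 (SE 0.25, limma adjusted p = 0.145), and passed when T-ALL Ly6cloF4/80hi was left out (log2 difference -1.05, limma adjusted p = 0.0444). A miss at this size of study, in a fit over both states, does not show that gates were alike.

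**Figure D4:**
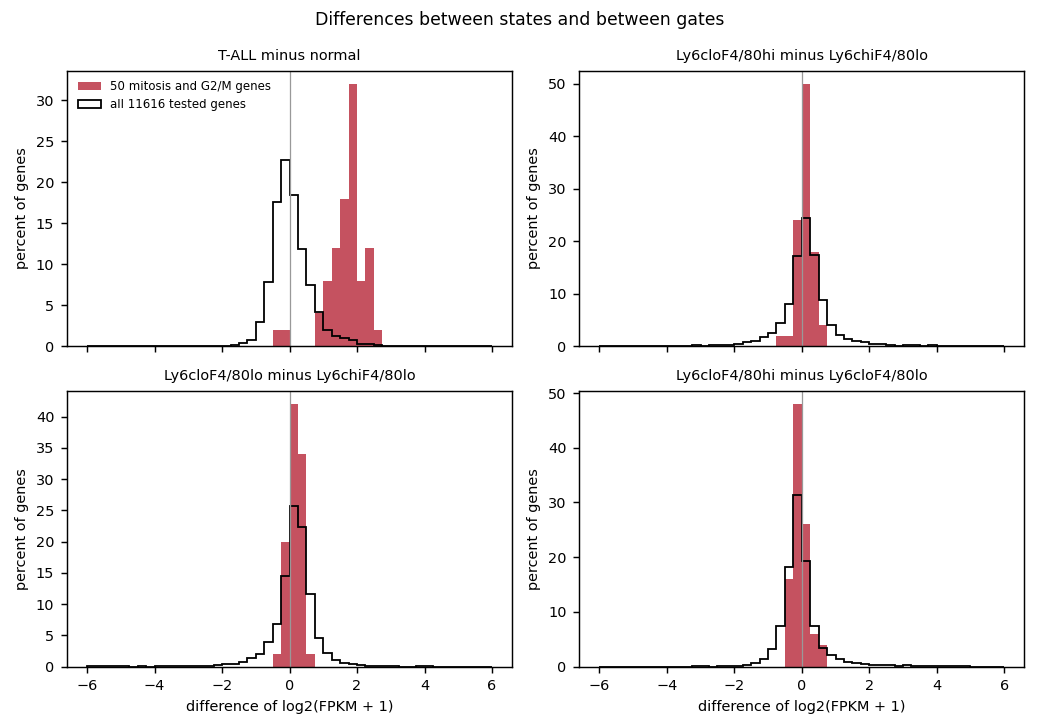
Percent of genes by difference of log2(FPKM + 1) in 4 comparisons, for the 50 mitosis and G2/M genes (red) and all 11616 tested genes (black line). The red bars centre on 1.79 in T-ALL minus normal, apart from all genes. They lie with all genes around 0 in the comparisons between gates, which average over both states.

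Other genes of mitosis and of the cell cycle, in 10 lists, were tested in the same fit. Counted once, 93 of 173 tested genes rose in T-ALL and 2 fell, with a median log2 difference of 0.86. Among regulators of mitotic transcription 3 of 14 rose, Foxm1, Mybl2 and Tfdp1, and 11 did not pass (median 0.49). Foxm1, the forkhead factor of G2 genes, had 3.80, 4.23 and 5.17 FPKM in T-ALL and 0.98, 1.47 and 1.37 FPKM in normal mice (log2 difference 1.25, SE 0.18, limma adjusted p = 0.0154). Mybl2, B-Myb, had 8.00, 5.15 and 3.03 FPKM in T-ALL and 1.13, 1.61 and 0.83 FPKM in normal mice (log2 difference 1.48). Tfdp1, a partner of E2F factors, had a log2 difference of 1.44, while subunits of the MuvB core and of NF-Y did not pass. Without normal Ly6cloF4/80hi only Tfdp1 of the 3 passed.

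Of 11 tested Cdk1 regulators 6 rose (median 0.99), among them the phosphatase Cdkn3 (2.02), the Cdk-binding subunits Cks1b (1.91) and Cks2 (1.55), and cyclin F, Ccnf (1.64). Cks1b was abundant, at 145, 130 and 146 FPKM in T-ALL and 31.4, 46.6 and 33.4 FPKM in normal mice. The inhibitory kinases Wee1 and Pkmyt1 did not pass. Subunits of the anaphase-promoting complex, which dividing and resting cells both use, mostly did not pass: 5 of 18 rose (median 0.39). They were Anapc5, Anapc15, the inhibitor Fbxo5, the ubiquitin-conjugating enzyme Ube2s and the separase gene Espl1. Espl1, whose inhibitor is securin, had 11.5, 9.62 and 8.67 FPKM in T-ALL and 2.40, 5.49 and 2.58 FPKM in normal mice (log2 difference 1.34, SE 0.24, limma adjusted p = 0.0257). Without either Ly6cloF4/80hi library 0 of these 18 passed, and without normal Ly6cloF4/80hi 3 of the Cdk1 regulators did. With no block for gate these counts were 0 and 3.

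The rest of the division machinery rose in part. Of other kinetochore and checkpoint genes 12 of 19 rose (median 0.91), led by Ska1 (1.81) and Zwilch (1.50). The inner centromere network had 13 of 21 (median 1.11), led by Cenph (1.95) and Oip5 (1.94), which shares bases with Nusap1. Other spindle genes and motors had 18 of 24 (median 1.36), led by the centrosome kinase Nek2 (2.08) and Kif18b (1.92). The list of other cytokinesis genes had 8 of 14 (median 1.09), led by Shcbp1 (1.89). Not all of its genes are particular to cytokinesis, such as Esco2 and Plk4. It shares Kif14, Cep55 and Plk4 with the spindle list, so these counts are not separate. Of 14 cohesin and condensin genes 4 rose, Cdca5, Ncaph, Ncapd3 and Ncapg2 (median 0.26). None of these lists had a gene that fell. The kinetochore count was 6 without T-ALL Ly6cloF4/80hi and 5 without normal Ly6cloF4/80hi, and without either Ly6cloF4/80hi library the spindle count was 11 and the cytokinesis count 2. With no block for gate the kinetochore count was 3, the inner centromere count 7, the spindle count 9, the cytokinesis count 2 and the cohesin and condensin count 2.

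DNA replication and S phase genes were also higher in T-ALL. Of 26 tested 25 rose and Tyms did not pass, with a median log2 difference of 1.67 and within-gate medians of 2.08, 1.44 and 1.41. With no block for gate 9 of the 26 rose. Their summed level was 1983, 1537 and 1092 FPKM in T-ALL and 457, 576 and 392 FPKM in normal mice. Rrm2, a subunit of ribonucleotide reductase, had 212, 110 and 141 FPKM in T-ALL and 25.4, 24.3 and 27.2 FPKM in normal mice (log2 difference 2.50, SE 0.20, limma adjusted p = 0.00832). A list of G1 cyclins, their kinases, Cdk inhibitors and other restrainers of growth had 16 tested genes. Of these 3 rose, the cyclins Ccne1 and Ccne2 and the kinase Cdk4. The 2 that fell, Btg1 and Btg2, are known to restrain proliferation and are neither cyclins nor Cdk inhibitors. Ccne1, the cyclin of S phase entry, had 61.7, 38.4 and 22.0 FPKM in T-ALL and 7.06, 7.38 and 7.69 FPKM in normal mice (log2 difference 2.2, SE 0.29). Btg2 had 82.3, 103 and 118 FPKM in T-ALL and 214, 242 and 175 FPKM in normal mice (log2 difference -1.05, SE 0.20, limma adjusted p = 0.0289). Without either Ly6cloF4/80lo library, or with no block, neither Btg gene passed. Inhibitors of the Cdkn1 and Cdkn2 families that were tested did not pass.

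Markers from erythroid, myeloid progenitor, plasma cell, basophil and mast cell, and megakaryocyte lists were in part also higher in T-ALL. Erythroid markers (12 genes) summed to 1677, 988 and 58.5 FPKM in T-ALL, against 175, 136 and 28.7 FPKM in normal mice, and 7 of 12 rose. Like the mitotic genes they were highest in T-ALL Ly6cloF4/80hi. In Ly6chiF4/80lo they were low in both states, while the summed mitotic level there was 1782 and 599 FPKM in T-ALL and normal mice. Myeloid progenitor markers (8 genes) summed to 438, 660 and 2447 FPKM in T-ALL and 309, 299 and 553 FPKM in normal mice, with 6 of 8 higher. Plasma cell markers (6 genes) summed to 1422, 1468 and 13246 FPKM in T-ALL and 313, 604 and 5326 FPKM in normal mice, with 5 of 6 higher. Both were highest in Ly6chiF4/80lo. The mitotic sum was lowest in that gate in either state, but without Spc24 and Pttg1 it was lowest in Ly6cloF4/80hi in normal mice. In T-ALL the gap was small, 1782 FPKM against 1805 FPKM in Ly6cloF4/80lo. Dividing by median-ratio factors (0.91 for T-ALL Ly6chiF4/80lo and 1.08 for T-ALL Ly6cloF4/80lo) reverses that order, so it depends on scaling. Basophil and mast cell markers (5 genes) summed to 119, 306 and 22.1 FPKM in T-ALL and 14.1, 30.1 and 8.19 FPKM in normal mice, with 3 of 5 higher. Megakaryocyte markers (6 genes) summed to 58.5, 53.2 and 36.6 FPKM in T-ALL and 18.6, 17.4 and 24.1 FPKM in normal mice, with 2 of 6 higher. The part of these cell types in the mitotic rise was not tested. Without either Ly6cloF4/80hi library 0 erythroid, 0 basophil, 0 megakaryocyte and 1 plasma cell markers passed, and without either Ly6cloF4/80lo library 0 erythroid markers did, while 6 of 8 myeloid progenitor markers passed whichever library was left out. With no block for gate 0 markers of each of these 5 lists passed.

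Markers of T cells, the lineage of the leukemia, were low, and over the 6 libraries none of them passed as higher in T-ALL. T cell markers (10 genes) summed to 109, 90.3 and 95.3 FPKM in T-ALL and 69.0, 146 and 140 FPKM in normal mice, with 0 of 9 tested higher and Cd4 lower. Cd4 did not pass when any Ly6cloF4/80lo or Ly6chiF4/80lo library was left out. The costimulatory receptor gene Cd28 passed as higher without either Ly6cloF4/80lo library (log2 difference 1.10). Immature T cell markers (6 genes) summed to 37.8, 11.9 and 26.2 FPKM in T-ALL and 11.9, 10.8 and 32.8 FPKM in normal mice, with 0 of 3 tested called. Dntt, the terminal transferase of lymphocyte progenitors, passed as higher without either Ly6chiF4/80lo library (log2 difference 2.49). Rag1, Rag2 and Notch3 were too low to be tested. The T cell sum was higher in T-ALL in Ly6cloF4/80hi and lower in the other gates, and the median log2 differences of T cell and immature T cell markers in Ly6cloF4/80hi were 0.91 and 0.81. B cell markers (6 genes) summed to 1807, 2264 and 1168 FPKM in T-ALL and 1710, 3283 and 1356 FPKM in normal mice, and 0 of 6 were called. Neutrophil markers (8 genes) summed to 206, 108 and 43449 FPKM in T-ALL and 328, 376 and 12994 FPKM in normal mice, with 0 of 8 called. Ltf, Ngp and Retnlg passed as lower in T-ALL without either Ly6chiF4/80lo library. Natural killer cell markers (5 genes) summed to 93.8, 166 and 188 FPKM in T-ALL and 75.9, 168 and 420 FPKM in normal mice, with 0 of 5 called. No marker gene was at 0 in any library.

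Some markers of mature macrophages, monocytes and dendritic cells fell in T-ALL. Red pulp macrophage markers (8 genes) summed to 2957, 477 and 553 FPKM in T-ALL and 9422, 645 and 1089 FPKM in normal mice, and 6 of 8 fell. In Ly6cloF4/80hi, the gate with the largest mitotic differences, their sum differed most between states in absolute level. Classical monocyte markers (6 genes) summed to 123, 174 and 2914 FPKM in T-ALL and 143, 225 and 1525 FPKM in normal mice. Of these 2 of 6 fell, Ccr2 and Fcgr1, and with an untrended and non-robust prior 0 did. Ly6c2 ran the other way (log2 difference 0.78, not called) and passed as higher without T-ALL Ly6cloF4/80lo (log2 difference 1.12). Dendritic cell markers (6 genes) summed to 52.7, 113 and 76.1 FPKM in T-ALL and 104, 257 and 324 FPKM in normal mice, and 4 of 6 fell. Without either Ly6cloF4/80hi library 3 red pulp and 0 monocyte markers passed, and without normal Ly6cloF4/80hi or normal Ly6cloF4/80lo 1 dendritic cell marker did (2 without T-ALL Ly6cloF4/80hi). With no block for gate 0 markers of these 3 lists passed.

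**Figure D5:**
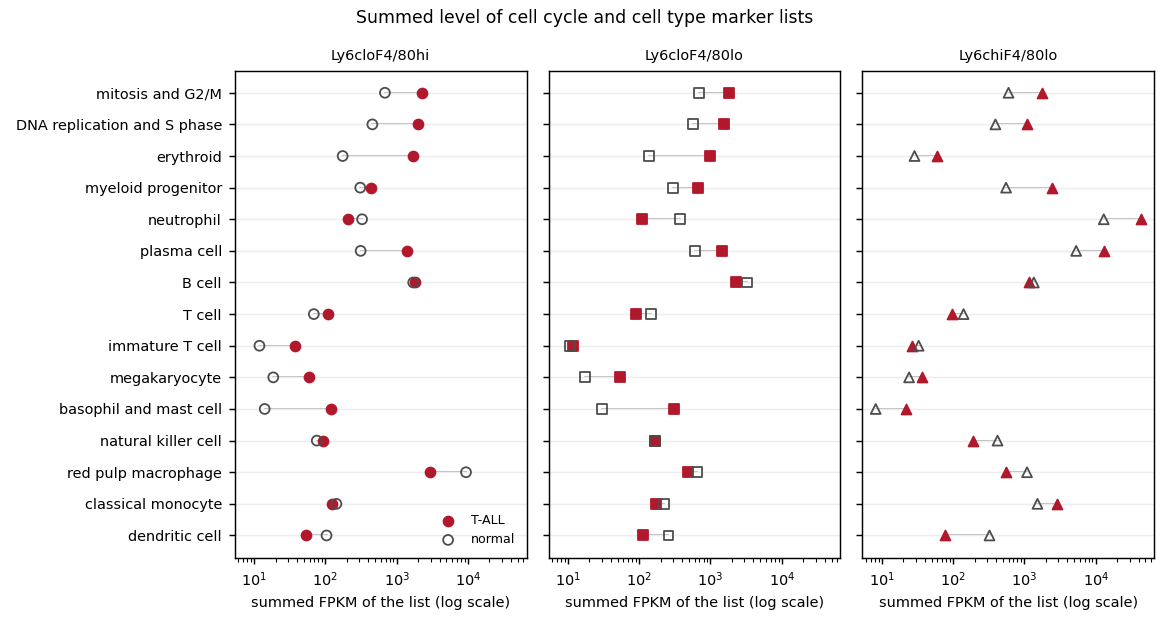
Summed FPKM on a log axis of the 50 mitosis and G2/M genes, of 26 replication genes and of 13 cell type marker lists, in 1 panel per gate, with T-ALL filled and normal open. The mitotic sum is higher in T-ALL in each gate (2245 against 686, 1805 against 692 and 1782 against 599 FPKM), and the erythroid sum differs mostly in the Ly6clo gates.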

How the data were processed

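RNA came from 6 sorted fractions, 1 per gate and state, by a QIAGEN column kit, and libraries were read on an Illumina machine (per the labels' protocols). The authors deposited FPKM per Entrez gene, for which the submitters' processing notes name Bowtie2 2.2.5 and RSEM. Not given in the sources used here are the build, the annotation, the version of RSEM and whether strand was used. FPKM hold no counts, so a test for counts was not used. Values have 2 decimals, and a gene that a file does not list counted as 0 FPKM. Of 16058 identifiers 16017 matched a symbol in a RefSeq table of GRCm38.p6, used for names and promoters only.

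Depth was estimated from the spacing of low FPKM in 386 to 438 genes with GENCODE M21 lengths. It was at most 0.167% off in 3 simulated libraries, which were drawn as whole counts on those same lengths. That error does not cover other lengths or fractional counts behind the deposited FPKM. Counting errors cover sampling of fragments only.

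A linear model of log2(FPKM + 1) on state and gate was fitted with limma 3.58.1 and statmod 1.5.0 in R 4.3.3, with a trended and robust prior (2 residual degrees of freedom, median total 6.23). Tests were two-sided over 11616 genes with Benjamini-Hochberg adjustment, and an adjusted p under 0.05 passed. SE are those of the moderated fit. Tested on simulated data, the fit of T-ALL minus normal found 62.6% of 4-fold and 17.4% of 2-fold changed genes (20 runs, 200 of 11616 genes changed), and 2.67% of its calls were false. Errors were drawn independently for each simulated library, so these rates do not cover effects that the libraries of a state share. Within a gate only differences were computed. Sums, motif searches and figures were made in Python 3.11.15 (numpy 2.4.6; pandas 2.3.3; matplotlib 3.10.9).

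All 50 members are named. Of each other list up to 4 genes with the largest absolute log2 difference and at least 5 FPKM in 1 library could be named with values, and genes named to spell out a count were chosen after their values were seen. The members and lists were chosen with earlier results of these data known. Alternatives were a pseudocount of 0.1, quantile normalization, rescaling by median ratios, no filter or a filter on a mean of 5 FPKM, an untrended and non-robust prior, no block, and each library left out in turn. Of the 50 members 9 have no promoter entry: Ccna2, Cdc25c, Aurkb, Incenp, Kif20a, Tpx2, Pbk, Smc4 and Spc24.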

Additional observations from a re-analysis of the deposited data

Results flagged for a closer look

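Spc24, E2f4 and Csf1r had differences of log2(FPKM + 1), T-ALL minus normal, of opposite sign in different gates. With 1 library per gate and state the difference between gates was not tested. For the Ndc80 complex gene Spc24 the differences were -0.88 in Ly6cloF4/80hi, 0.23 in Ly6cloF4/80lo and 0.00 in Ly6chiF4/80lo, and the normal Ly6cloF4/80hi library was the one apart. For E2f4, the E2F factor of the DREAM complex, they were 1.65, 0.85 and -0.11 in the same order of gates, on 34.2, 25.2 and 11.2 FPKM in T-ALL and 10.2, 13.6 and 12.2 FPKM in normal mice. For the macrophage receptor gene Csf1r they were -1.37, 0.23 and -1.01. None of the 3 genes passed over the gates (limma adjusted p = 0.544, 0.134 and 0.174), although E2f4 passed without either Ly6chiF4/80lo library and Csf1r without either Ly6cloF4/80lo library.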

How the results depend on the processing

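Over 13 other settings the number of members that rose in T-ALL stayed between 41 and 48 (42 to 47 with a library left out), 0 fell, and the members' median log2 difference stayed between 1.55 and 1.93. The call held for 40 members in every setting that tested them. Of 646 member values 610 kept their direction and side of the threshold, 34 lost the call, and 2 reversed. Both were Spc24, at the same estimate of 0.12 without T-ALL Ly6cloF4/80hi or without normal Ly6cloF4/80hi. Spc24 ranged from -0.44 to 0.12 over the libraries left out.

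Counts over all genes moved far more. For T-ALL minus normal 293 rose and 77 fell with no filter, 147 and 14 with no block, and 251 to 831 and 67 to 332 with a library left out. For Ly6cloF4/80hi minus Ly6chiF4/80lo 463 were higher and 404 lower with no filter, 100 and 97 with no block, 549 higher after quantile normalization, and 395 to 728 higher and 226 to 611 lower with a library left out. The members called lower there ranged from 0 to 1. For Ly6cloF4/80lo minus Ly6chiF4/80lo 81 were higher and 75 lower with no filter, 173 higher after median-ratio rescaling, 161 after quantile normalization, 0 and 0 with no block (871 and 464 at an unadjusted limma p under 0.05), and 32 to 452 and 47 to 304 with a library left out. For Ly6cloF4/80hi minus Ly6cloF4/80lo 160 were higher and 13 lower with no filter, 58 lower after median-ratio rescaling, 0 and 0 with no block (652 and 527 unadjusted), and 116 to 421 and 10 to 252 with a library left out. In Ly6cloF4/80lo minus Ly6chiF4/80lo rescaling moved the median of all genes, 0.19, to 0.02 and quantile normalization to 0.04. The members' median moved with it to 0.02 and 0.01, and was 0.04 to 0.36 with a library left out. The causes were not tested.

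Of 566 values of 44 named list genes 494 kept their call, 64 lost it and 8 gained it. The fit takes gate as a block, which sets each T-ALL library beside the normal library of its gate. The labels carry no replicate numbers that would pair libraries in another way. Without the block 18 of 20 list counts above 0 moved by over 1.5 times, and with no filter 12 did. With no filter 3 Cdk1 regulators, 0 genes of the anaphase-promoting complex and 2 genes of the cytokinesis list rose. Of markers 1 erythroid, 2 plasma cell, 1 megakaryocyte and 0 basophil rose there. In that setting 0 Btg genes and 0 T cell, 3 red pulp, 0 monocyte and 1 dendritic cell markers fell. Without either Ly6chiF4/80lo library 2 genes of the anaphase-promoting complex and 5 basophil markers rose. Without either Ly6cloF4/80lo library 5 genes of the cytokinesis list, 1 basophil and 1 megakaryocyte marker did. Depth limits the scarcest members, above all Cdc25c in normal mice.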
